A study of Mus musculus with 10 samples.

Results

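Genes of triglyceride lipolysis, the pathway by which fat cells break stored fat down to fatty acids and glycerol, were followed in the epididymal fat of mice lacking ASC or caspase-1. The set holds 9 genes, namely the lipases Lipe, Pnpla2 and Mgll, the lipase cofactor Abhd5, the lipase inhibitor G0s2, the beta-3 adrenergic receptor Adrb3, the phosphodiesterase Pde3b, the kinase subunit Prkar2b and the glycerol channel Aqp7. A gene counted as measured where the array annotation paired a probe set with its symbol and no other, and where a gene had several such probe sets the brightest on average was used. By this rule 8 of the 9 genes were measured, out of 17097 genes in all. Adrb3 was not analysed here, because the annotation used pairs no probe set with it.

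The tissue came from 3 ASC-/- mice, 3 Casp1-/- mice and 4 wild-type (WT) mice, all males on the C57/Bl6 background. They were 8 to 12 weeks old at the start and ate a diet with 45% of its energy as fat for 16 weeks, so the WT mice were on the same diet. ASC, encoded by Pycard, is the adaptor of the inflammasome, and caspase-1 is the protease that it activates. The sources used here do not say how either null allele was made. RNA of each mouse was hybridised to 1 Affymetrix HT_MG-430 PM array, and values are log2 signals, so that a difference of 1 is a 2-fold change.

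In fat cells, catecholamines acting on beta-adrenergic receptors raise cyclic AMP, which activates protein kinase A. The kinase phosphorylates hormone-sensitive lipase and the droplet coat, which frees ABHD5 to activate adipose triglyceride lipase. The lipases then act in sequence on tri-, di- and monoglycerides, and glycerol leaves through an aquaporin. Insulin opposes the pathway through a phosphodiesterase that degrades cyclic AMP. Adipose tissue of obese animals also holds many macrophages, which use part of the same enzymes.

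The tissue expressed the defining fat cell genes, with the adipokine gene Adipoq at 13.53 ± 0.058 in ASC-/- fat, 13.72 ± 0.0088 in Casp1-/- fat and 13.51 ± 0.19 in WT fat (SD, n = 3, 3 and 4), and Lep at 12.71 ± 0.14, 12.78 ± 0.078 and 12.47 ± 0.33 in the same order. Plin1 was not analysed here. Pycard was at 3.40 ± 0.27 on the ASC-/- arrays against 9.82 ± 0.62 on the WT arrays, and Casp1 was at 4.85 ± 0.14 on the Casp1-/- arrays against 9.32 ± 0.55 on the WT arrays. Array medians lay between 4.29 and 4.36, and the highest of 23 background control probe sets reached 5.01 on a single array. By their added poly-A spike-in controls the arrays fell into a high set (7.51 to 8.07), made of the 3 Casp1-/- arrays and WT replicate 1, and a low set (5.76 to 6.50), made of the ASC-/- arrays and WT replicates 2 to 4. The labels name no batch. With the spike-in set as a block, Casp1-/- minus WT rests on WT replicate 1 alone. The signal of the 3′ actin control minus that of the 5′ one is the actin covariate used below. It ran from 0.54 to 0.67 in ASC-/-, 0.82 to 0.98 in Casp1-/- and 0.46 to 1.05 in WT, so the null genotypes did not overlap. WT replicate 3 also stood apart, as described below.

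The tissue holds several cell types, and fewer fat cells and less RNA per fat cell cannot be told apart. The mean of 9 measured adipocyte markers, of 12 listed, ran from 10.5 to 10.8 on the ASC-/- arrays, 11.1 to 11.2 on the Casp1-/- arrays and 10.1 to 11.0 on the WT arrays. Of these markers Pck1 was at background level on every array (2.95 to 3.28) and was kept in the mean. The mean of 15 macrophage markers ran from 10.4 to 10.8 in ASC-/-, 9.02 to 9.30 in Casp1-/- and 9.83 to 11.1 in WT fat. The mean of 9 epididymis markers ran from 3.50 to 4.45, 3.63 to 5.83 and 3.44 to 5.32 in the same order of genotypes. Casp1-/- fat thus had the most adipocyte marker signal and the least macrophage marker signal, without overlap with either other genotype.

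In ASC-/- fat none of the 8 measured lipolysis genes differed from WT past the threshold, an adjusted p under 0.05 by limma, which 0.0351% of all genes passed. In Casp1-/- fat Lipe and G0s2 were higher than on every WT array, as were 15.1% of all genes. Both missed that threshold, which 8.17% of all genes passed. Between the null genotypes, G0s2 was lower in ASC-/- than in Casp1-/- fat and passed it, as did 7.39% of all genes. The null genotypes lie in different spike-in sets, so genotype and set are told apart there only through WT replicate 1. The differences of Lipe and G0s2 given here were under 2-fold. The adipocyte markers were also highest on the Casp1-/- arrays, and their part in the differences was not tested.

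The lipases act on the stored fat itself. Lipe encodes hormone-sensitive lipase, which mainly cleaves diglycerides. Its log2 signal was 11.06, 11.12 and 11.35 in ASC-/- fat, 11.88, 11.92 and 12.07 in Casp1-/- fat, and 11.52, 11.59, 10.46 and 11.18 in WT fat. All 3 Casp1-/- arrays lay above all 7 others, while the ASC-/- arrays lay inside the WT range. The Casp1-/- mean exceeded the WT mean by 0.77 ± 0.24 (SE), or 1.70-fold, with limma's adjusted p = 0.0771 and a 95% interval of 0.23 to 1.31. Against Casp1-/-, ASC-/- fat differed by -0.78 ± 0.26 (SE, adjusted p = 0.0949 by limma), and against WT by -0.0094 ± 0.24 (SE). With the spike-in block Casp1-/- minus WT was 0.44 ± 0.35 (SE). All 3 Casp1-/- arrays were above WT replicate 1, the WT array of their set, which follows from their lying above all 7 others. Leaving out WT replicate 1 brought Lipe past the threshold (0.88, adjusted p = 0.0427), as it did 17.7% of all genes. No WT array of the high spike-in set is then left. Leaving out WT replicate 3 lowered the difference to 0.53. Without WT replicate 3, Lipe also passed between the null genotypes (adjusted p = 0.00667 for the same difference), as did 15.3% of all genes. With the actin covariate the difference between the null genotypes was -0.43 ± 0.24 (SE, adjusted p = 0.425). A second probe set of Lipe was as dim as the background controls in every genotype. Without the 3 arrays highest in epididymis markers (Casp1-/- replicate 2, WT replicates 1 and 2), Lipe was past the threshold at 1.16 (adjusted p = 0.0227). The WT arrays left were then replicates 3 and 4, both of the low spike-in set, and 19.4% of all genes passed.

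Mgll encodes monoglyceride lipase, which takes the last fatty acid off glycerol. Its signal was 12.27, 12.46 and 12.38 in ASC-/- fat, 12.60, 12.64 and 12.58 in Casp1-/- fat, and 12.66, 12.49, 11.68 and 12.31 in WT fat. The 3 Casp1-/- arrays lay above all ASC-/- arrays, but WT replicate 1 lay above them. The differences were 0.32 ± 0.20 for Casp1-/- minus WT (SE, adjusted p = 0.321 by limma) and -0.23 ± 0.21 for ASC-/- minus Casp1-/- (SE, adjusted p = 0.516). Casp1-/- minus WT was 0.12 without WT replicate 3. With the spike-in block both turned sign, to -0.052 and 0.26. Mgll had 2 further bright probe sets, and these gave 0.22 and 0.32 for Casp1-/- minus WT.

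Pnpla2 encodes adipose triglyceride lipase, which takes the first fatty acid off a triglyceride. Its only probe set named by the annotation was dim, at 4.25, 4.83 and 4.71 in ASC-/- fat, 4.60, 4.22 and 4.43 in Casp1-/- fat, and 5.12, 5.35, 3.65 and 4.22 in WT fat. Of these 10 values, those of WT replicates 1 and 2 alone exceeded the highest background control, so the probe set gives little information on this lipase. The genotypes overlapped, and the 95% interval of Casp1-/- minus WT ran from -0.99 to 0.66 around a difference of -0.17, which was -0.48 without WT replicate 3.

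Abhd5 and G0s2 set the activity of that first lipase in opposite directions. Abhd5 encodes its activator CGI-58, and its signal was 9.79, 10.11 and 10.19 in ASC-/- fat, 10.08, 9.95 and 10.03 in Casp1-/- fat, and 10.52, 10.44, 9.65 and 9.88 in WT fat. The 3 genotypes overlapped, with differences from WT of -0.096 ± 0.21 in ASC-/- and -0.11 ± 0.21 in Casp1-/- fat (SE, adjusted p = 1.00 and 0.782 by limma). Its second probe set gave -0.044 and -0.092. Leaving out WT replicate 3 moved the differences to -0.25 and -0.26.

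G0s2 encodes the inhibitor. Its signal was 10.99, 11.17 and 11.41 in ASC-/- fat, 11.96, 12.09 and 11.92 in Casp1-/- fat, and 11.66, 11.55, 10.92 and 11.28 in WT fat. As for Lipe, all 3 Casp1-/- arrays lay above all 7 others and the ASC-/- arrays lay inside the WT range. In ASC-/- fat G0s2 was lower than in Casp1-/- fat by 1.74-fold, a log2 difference of -0.80 ± 0.19 (SE, adjusted p = 0.0350 by limma, 95% interval -1.21 to -0.38). Casp1-/- minus WT was 0.63 ± 0.17 (SE, 1.55-fold, adjusted p = 0.0542, 95% interval 0.24 to 1.02), and ASC-/- minus WT was -0.16 ± 0.17 (SE, adjusted p = 1.00). The call between the null genotypes was lost without ASC-/- replicate 1 or 2, without any 1 of the Casp1-/- arrays or without WT replicate 4, with differences of -0.91 to -0.70 and adjusted p = 0.00695 to 0.136 over the 10 arrays left out in turn. It was also lost with the spike-in block (-0.38 ± 0.29, SE) and with the actin covariate (-0.54 ± 0.17, SE, adjusted p = 0.155). Casp1-/- minus WT was 0.32 ± 0.23 with the spike-in block (SE), and 0.74 with adjusted p = 0.0215 without WT replicate 1. No WT array of the high spike-in set is left without that array, and 17.7% of all genes then passed. Without WT replicate 3 Casp1-/- minus WT was 0.49, and ASC-/- minus WT was -0.31. That all 3 Casp1-/- arrays exceeded WT replicate 1 follows from their lying above all 7 others. Without the 3 arrays highest in epididymis markers Casp1-/- minus WT was 0.84 (adjusted p = 0.0235). In that setting both WT arrays left were of the low spike-in set, and 19.4% of all genes passed.

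**Figure D1:**
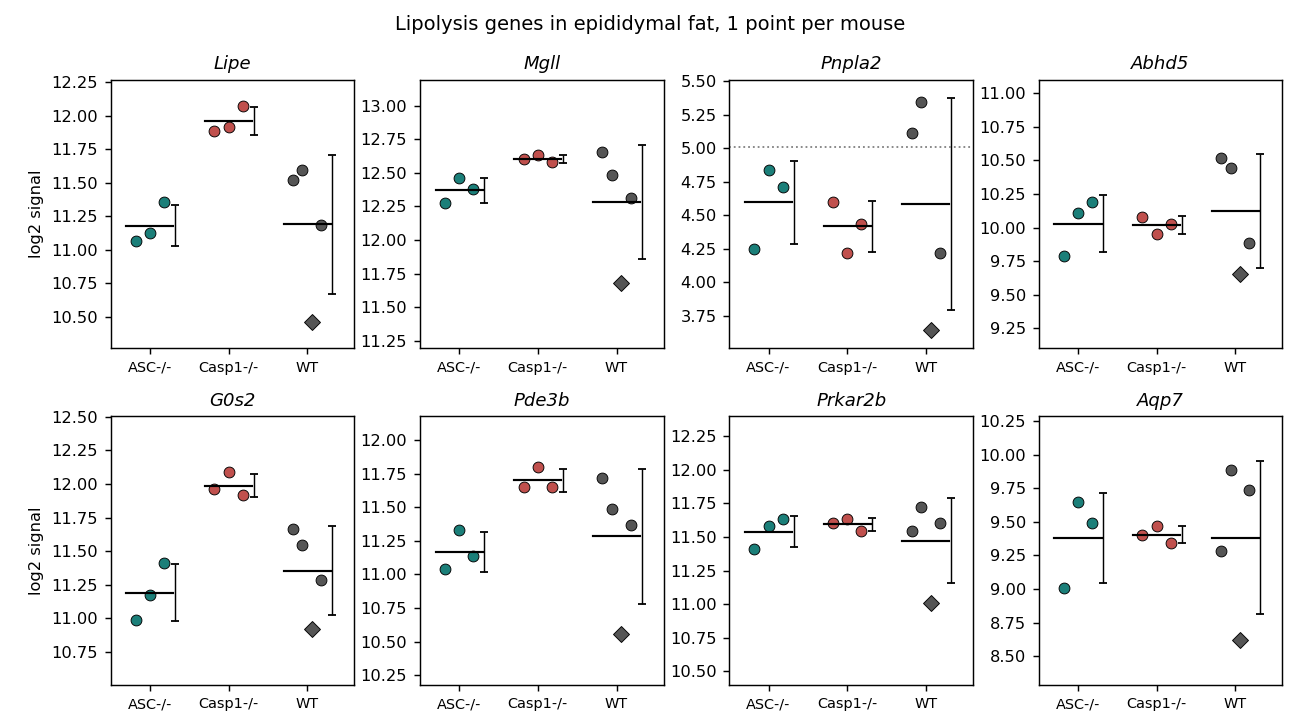
Log2 signal of the 8 measured lipolysis genes in ASC-/-, Casp1-/- and WT fat, with 1 point per mouse, bars at the group mean, error bars of 1 SD and WT replicate 3 as a diamond. Casp1-/- points of Lipe and G0s2 lie above all others, the diamond is the lowest point of every panel, and the dotted line in the Pnpla2 panel is the highest background control (5.01).

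Because Lipe and G0s2 stood apart on the same arrays, the stretch of 250 bases before their annotated starts is shown, from RefSeq on GRCm38.p6, 5′ to 3′ on the strand of the gene. Capitals mark matches to any of 6 short motifs searched on both strands. Lipe has 2 annotated starts in that table. The window before the upstream start (chr7:25395988-25396237, minus strand) holds the E-box CACGTG at bases -155 to -150 from the start, and the window before the downstream start (chr7:25390113-25390362, minus strand) holds the forkhead motif TGTTTAC at bases -119 to -113. The window of G0s2 (chr1:193273189-193273438, minus strand) holds TGACG, one side of a cyclic AMP response element, on the opposite strand at bases -246 to -242.
Lipe, upstream start: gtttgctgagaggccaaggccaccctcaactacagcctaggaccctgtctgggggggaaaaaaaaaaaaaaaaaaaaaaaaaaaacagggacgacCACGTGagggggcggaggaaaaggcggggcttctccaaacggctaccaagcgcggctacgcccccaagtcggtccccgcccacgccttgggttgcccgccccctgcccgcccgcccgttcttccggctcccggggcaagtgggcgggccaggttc
Lipe, downstream start: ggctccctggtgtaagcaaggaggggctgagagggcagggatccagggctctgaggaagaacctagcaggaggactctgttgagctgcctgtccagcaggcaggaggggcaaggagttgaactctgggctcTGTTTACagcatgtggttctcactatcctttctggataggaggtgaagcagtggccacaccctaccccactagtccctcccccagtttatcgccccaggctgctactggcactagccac
G0s2: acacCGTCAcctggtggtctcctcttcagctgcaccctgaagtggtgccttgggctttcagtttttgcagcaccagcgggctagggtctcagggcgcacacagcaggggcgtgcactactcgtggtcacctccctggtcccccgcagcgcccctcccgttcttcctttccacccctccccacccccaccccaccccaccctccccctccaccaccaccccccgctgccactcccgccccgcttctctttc

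The windows matched for 7 of the 9 genes, 11 windows in all. CACGTG stood in 3 of them against 6.02% of 32851 windows of the same length, TGTTTAC in 2 against 3.17%, TGACG in 2 against 17.8%, and the nuclear receptor sequence AGGTCA in 3 against 14%. TATAAA and CCAAT were in 0 of the 11, against 12.4% and 33.8% of all windows. The E-box windows belong to Lipe, Mgll and Prkar2b and the forkhead windows to Lipe and Mgll, and none of the 6 motifs was shared by the windows of Lipe and G0s2. The windows of Aqp7 partly overlap, and a match describes letters only.

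Pde3b and Prkar2b act on the cyclic AMP signal. Pde3b encodes the phosphodiesterase through which insulin restrains lipolysis, and its signal was 11.04, 11.33 and 11.14 in ASC-/- fat, 11.65, 11.80 and 11.65 in Casp1-/- fat, and 11.72, 11.49, 10.56 and 11.37 in WT fat. The Casp1-/- arrays lay above all ASC-/- arrays, but WT replicate 1 lay among them. Casp1-/- minus WT was 0.42 ± 0.23 (SE, adjusted p = 0.281 by limma) and ASC-/- minus Casp1-/- was -0.53 ± 0.25 (SE, adjusted p = 0.214). With the spike-in block these were -0.018 and 0.048, with both signs turned. Without WT replicate 3 Casp1-/- minus WT was 0.17, while ASC-/- minus Casp1-/- passed the threshold at the same size (adjusted p = 0.0175), as did 15.3% of all genes.

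Prkar2b encodes the regulatory subunit RII-beta of protein kinase A, the main one of fat cells. Its signal was 11.41, 11.58 and 11.63 in ASC-/- fat, 11.61, 11.64 and 11.54 in Casp1-/- fat, and 11.54, 11.72, 11.01 and 11.60 in WT fat. The genotypes overlapped, and Casp1-/- minus WT was 0.12 ± 0.15 (SE, adjusted p = 0.649 by limma). Its 2 other probe sets gave 0.22 and 0.40. Leaving out WT replicate 3 gave -0.029.

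Aqp7 encodes the aquaglyceroporin by which glycerol leaves the fat cell. Its signal was 9.01, 9.65 and 9.49 in ASC-/- fat, 9.41, 9.47 and 9.34 in Casp1-/- fat, and 9.28, 9.89, 8.62 and 9.74 in WT fat. The 3 genotype means lay within 0.024 of each other, but this depended on single arrays. Without WT replicate 3 ASC-/- minus WT was -0.25 and Casp1-/- minus WT was -0.23. Without WT replicate 2 they were 0.17 and 0.19. ASC-/- minus Casp1-/- ran from -0.16 to 0.16 with each array left out. A second probe set of Aqp7 gave 0.015 for ASC-/- minus WT and 0.13 for Casp1-/- minus WT. The 95% interval of Casp1-/- minus WT ran from -0.60 to 0.65.

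In ASC-/- minus WT, 0 of the 8 measured genes passed the threshold by limma, against 0.0351% of all genes, and 0 had an unadjusted p under 0.05. Their differences ran from -0.16 to 0.088 with a median of -0.0048, beside a median of 0.0050 over all genes, with 3 of 8 positive, against 51.7% of all genes. None lay above or below WT without overlap, against 1.33% and 1.86% of all genes, 3.19% together. In Casp1-/- minus WT 0 of 8 passed, against 8.17% of all genes, while Lipe and G0s2 had an unadjusted p under 0.05, against 27.6% of all genes. These 2 of 8 lay above WT without overlap and 0 lay below, against 15.1% and 9.60% of all genes, 24.7% together. Of the 8 differences 6 were positive, against 57.3% of all genes, and the median of the 8 was 0.22 beside 0.041 over all genes. In ASC-/- minus Casp1-/- 1 of 8 passed, in the lower direction, against 7.39% of all genes in either direction and 3.54% in that one. An unadjusted p under 0.05 was found for 2 of 8, against 26.0% of all genes. There 4 of 8 lay below without overlap, namely Lipe, G0s2, Pde3b and Mgll, and 0 above, against 23.1% and 17.3% of all genes, 40.4% together. Of the 8 differences 2 were positive, against 42.7% of all genes, and the median was -0.14 beside -0.042. The comparisons share samples, the WT or the Casp1-/- arrays, so their values are not independent of each other.

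**Figure D2:**
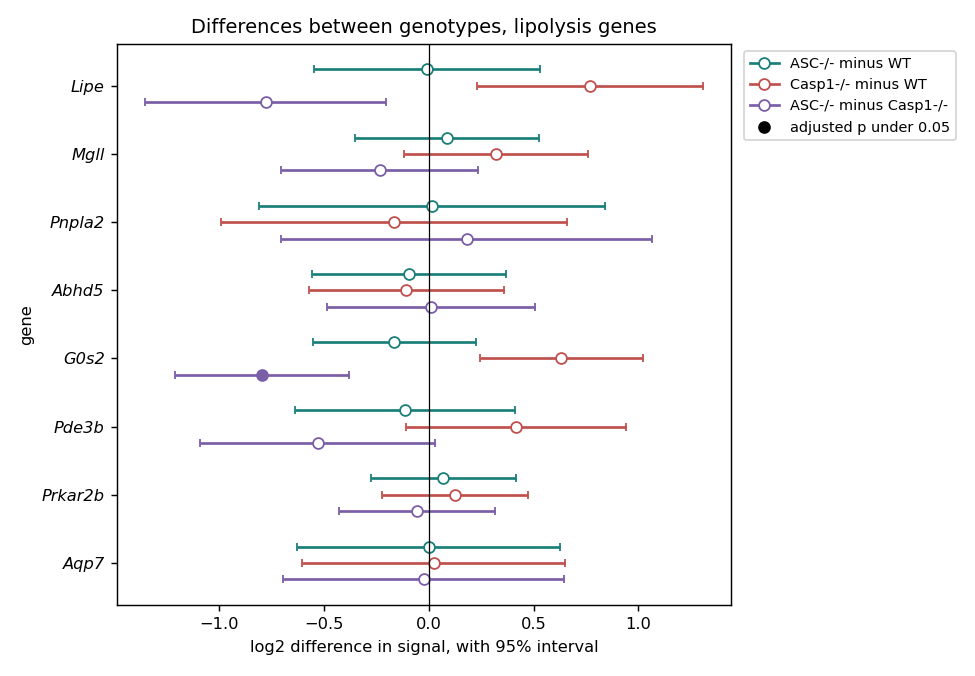
Log2 difference in signal with its 95% interval from limma for the 8 measured genes in ASC-/- minus WT, Casp1-/- minus WT and ASC-/- minus Casp1-/-. The filled point is G0s2 in ASC-/- minus Casp1-/- (-0.80, adjusted p = 0.0350), and all ASC-/- minus WT intervals cover 0.

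The spread between mice differed by genotype. Over the 7 genes outside the background range, the median SD was 0.15 in ASC-/-, 0.065 in Casp1-/- and 0.43 in WT fat, and the highest SD of any of them in Casp1-/- fat was 0.10, for Lipe. Over 9664 genes with a mean of at least 5, the median SD was 0.11, 0.11 and 0.22 in the same order. WT replicate 3 was the lowest of all 10 arrays for 8 of 8 genes, as it was for 20.1% of all genes. The same array was lowest for 8 of 9 adipocyte markers and highest for 13 of 15 macrophage markers and 6 of 6 mast cell markers. Without it, the median SD of the 7 lipolysis genes in WT fat was 0.20, against 0.17 for the genes with a mean of at least 5.

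The genes varied together over arrays to different degrees. Pearson's correlation over the 10 arrays ran from 0.38 to 0.95 over the 21 pairs of the 7 genes, with a median of 0.66. Without WT replicate 3 it ran from -0.022 to 0.96, with a median of 0.36. Lipe, G0s2, Pde3b and Mgll kept values of 0.80 to 0.96 with one another without that array, and Aqp7 and Prkar2b kept 0.87. The arrays share dissection, genotype differences and labelling, and these correlations are descriptions over 10 arrays with no test.

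The genes whose pattern over the 10 arrays was most like the mean of the 8 lipolysis genes were C330007P06Rik (r = 0.99), Aifm2 (r = 0.98) and Acbd4 (r = 0.98). The least like were Lima1 (r = -0.98), Naalad2 (r = -0.97) and Slc35b3 (r = -0.97). Without WT replicate 3 the values were 0.96, 0.95 and 0.95 for C330007P06Rik, Aifm2 and Acbd4, and -0.95, -0.93 and -0.96 for Lima1, Naalad2 and Slc35b3.

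Relative to the adipocyte markers of the same array, Lipe was the one lipolysis gene that stayed above WT without overlap in Casp1-/- fat. Subtracting the adipocyte marker mean narrowed the range over arrays from 1.62 to 0.562 for Lipe, from 1.24 to 0.355 for Pde3b and from 0.978 to 0.306 for Mgll. The range went from 1.16 to 0.481 for G0s2, from 0.715 to 0.519 for Prkar2b and from 1.27 to 0.831 for Aqp7. For Pnpla2 it went from 1.70 to 1.34, and for Abhd5 only from 0.866 to 0.795. On this scale Lipe was 0.75, 0.74 and 0.94 in Casp1-/- fat against 0.53, 0.63, 0.38 and 0.48 in WT fat. Mgll, Abhd5, Prkar2b and the dim Pnpla2 lay below WT without overlap in Casp1-/- fat, with means of 1.46 against 1.60 for Mgll, -1.13 against -0.56 for Abhd5 and 0.45 against 0.78 for Prkar2b. G0s2, Pde3b and Aqp7 overlapped WT. The share of all genes without overlap on this scale was not computed. The median of all genes moved by the same step to -0.42 in Casp1-/- minus WT, and to 0.43 in ASC-/- minus Casp1-/-. Of the genes below WT, Mgll (-0.14) and Prkar2b (-0.34) lay above that median, and Abhd5 (-0.57) lay below it. On this scale 0 of the 8 genes passed limma's threshold in any of the 3 comparisons. Of all genes 0.0117% passed in ASC-/- minus WT, 2.20% in Casp1-/- minus WT and 2.32% in ASC-/- minus Casp1-/-. G0s2 in ASC-/- minus Casp1-/- was then -0.33 ± 0.19 (SE, adjusted p = 0.239). The part of fat cell content in these differences was not tested.

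**Figure D3:**
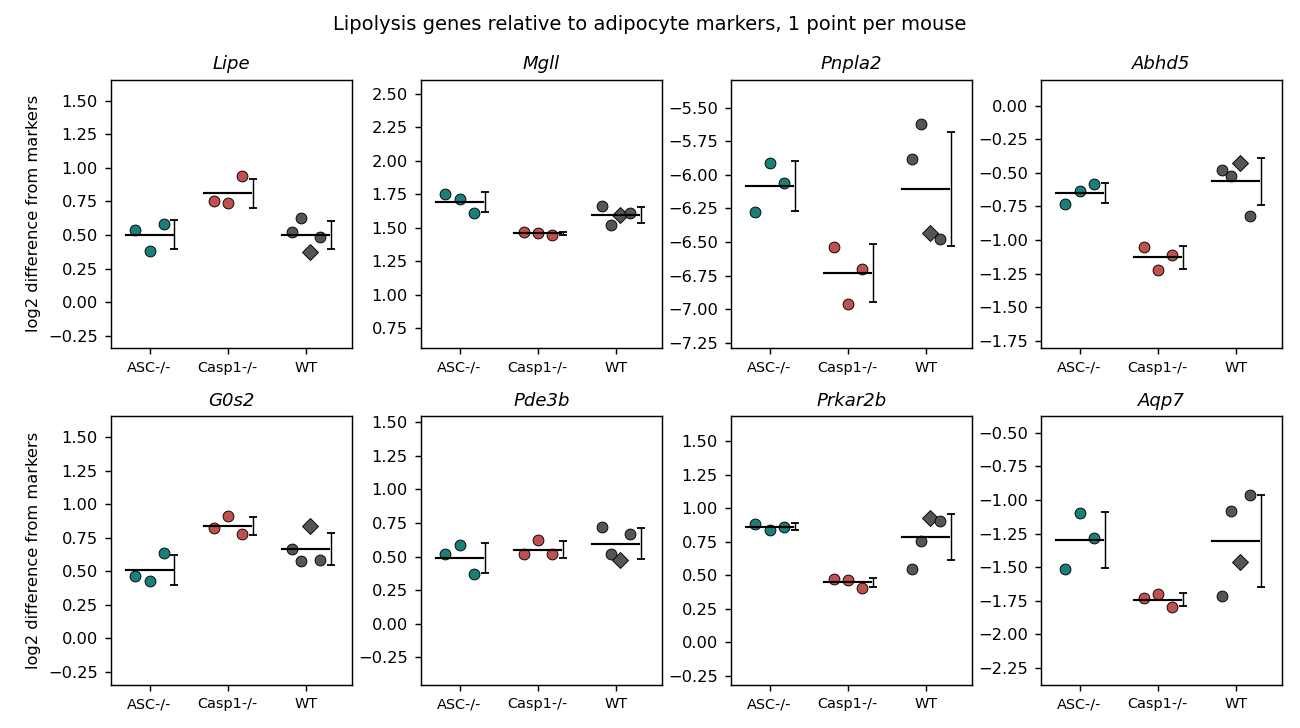
Log2 signal of each lipolysis gene minus the mean of 9 adipocyte markers on the same array, with 1 point per mouse, bars at the group mean, error bars of 1 SD and WT replicate 3 as a diamond. Casp1-/- points of Lipe stay above WT, and those of Mgll, Abhd5, Prkar2b and Pnpla2 lie below WT. The share of all genes that do either on this scale was not computed, and the median of all genes was -0.42 in Casp1-/- minus WT.

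**Figure D4:**
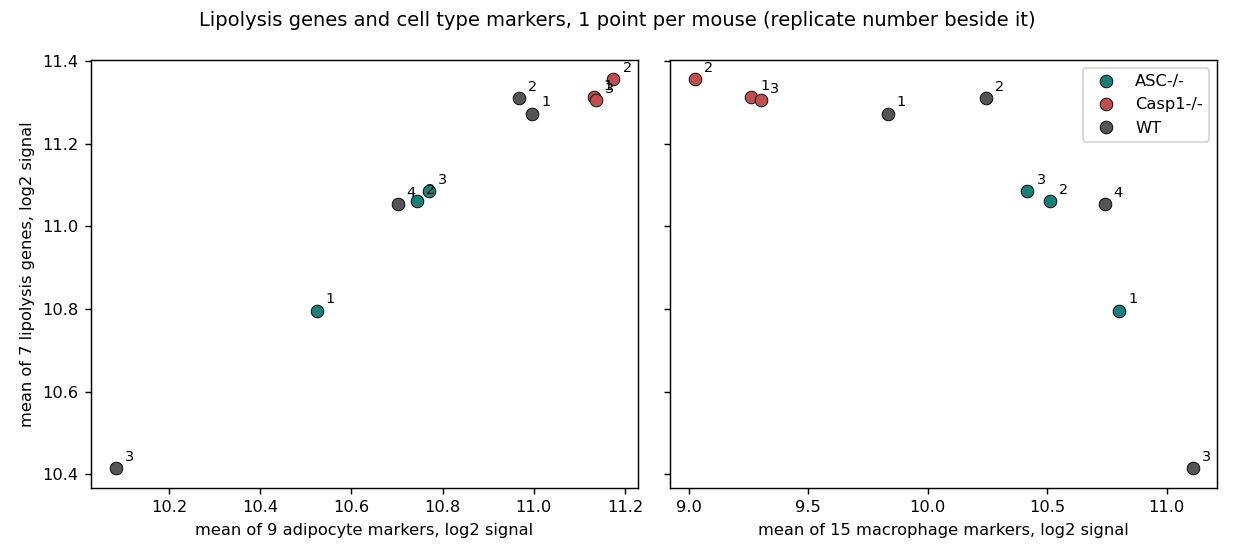
Mean log2 signal of the 7 lipolysis genes outside the background range against the mean of 9 adipocyte markers (left) and of 15 macrophage markers (right), with 1 point per mouse and its replicate number. WT replicate 3 is lowest on the vertical axis and has the lowest adipocyte and the highest macrophage marker mean, and the 3 Casp1-/- arrays lie at the low end of the macrophage axis.

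Around these genes, 5 lists of 93 receptor, cyclic nucleotide, insulin, droplet and regulator genes were followed, 79 of them measured, some of these at background level. By limma 0 of the 79 passed the threshold in ASC-/- minus WT, with 2 at an unadjusted p under 0.05. In Casp1-/- minus WT 3 rose and 6 fell, against 4.31% and 3.86% of all genes, and in ASC-/- minus Casp1-/- 5 were higher and 4 lower, against 3.85% and 3.54%. The medians of the 79 were 0.010, 0.096 and -0.16, beside 0.0050, 0.041 and -0.042 over all genes. Dropping single arrays moved these counts and the share of all genes past the threshold in the same directions. The count of 9 in Casp1-/- minus WT became 2, 1 and 2 on dropping Casp1-/- replicates 1, 2 and 3 in turn. The share of all genes there went from 8.17% to 1.80%, 0.374% and 1.59%. Dropping WT replicate 4 brought the count to 3 and the share to 2.02%. Dropping WT replicate 1 brought them to 18 and 17.7%. In ASC-/- minus Casp1-/- 7.39% of all genes passed with every array kept. This share became 0.275% and 0.901% on dropping ASC-/- replicates 1 and 2. It became 2.06%, 0.398% and 1.91% on dropping Casp1-/- replicates 1, 2 and 3, and 15.3% on dropping WT replicate 3. In the same order the count of listed genes was 0 and 1, then 2, 1 and 3, and then 23. With the spike-in block it was 0 in both comparisons with Casp1-/-.

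Transcriptional regulators of lipolysis genes held the 3 that rose in Casp1-/- fat, of 11 measured, with a list median of 0.14. Pparg, the nuclear receptor that drives the fat cell programme, was 11.14, 11.20 and 11.48 in Casp1-/- fat against 10.32, 10.50, 10.06 and 10.70 in WT fat. It rose by 0.88 ± 0.18 (SE, 1.84-fold, adjusted p = 0.0234 by limma), with no overlap. Its dimerisation partner Rxra averaged 8.96 ± 0.12 in Casp1-/- fat and 8.15 ± 0.29 in WT fat (SD, n = 3 and 4), a rise of 0.81 ± 0.17 (SE, adjusted p = 0.0242). Nr3c1, the glucocorticoid receptor, averaged 9.53 ± 0.10 and 9.15 ± 0.13, a rise of 0.38 ± 0.093 (SE, adjusted p = 0.0382). ASC-/- fat was lower than Casp1-/- fat for the same genes, by -0.82 for Pparg, -0.85 for Rxra and -0.43 for Nr3c1 (adjusted p = 0.0351, 0.0262 and 0.0340). There Pparg and Rxra lost their calls without ASC-/- replicate 1 or 2 or any 1 of the Casp1-/- arrays. Nr3c1 lost its call without any 1 of the ASC-/- or Casp1-/- arrays. The spike-in block gave -0.92, -0.61 and -0.60 between the null genotypes. On the scale of the adipocyte markers the Casp1-/- minus WT values were 0.42 for Pparg, 0.35 for Rxra and -0.077 for Nr3c1, none past the threshold. Under the spike-in block they were 0.95, 0.63 and 0.51, none past the threshold. Pparg lost its call against WT without any 1 of the Casp1-/- arrays, Rxra without any of those or WT replicate 4, and Nr3c1 passed only without WT replicate 1 or 3. Over the arrays left out in turn Pparg ran from 0.77 to 0.98, Rxra from 0.69 to 0.91 and Nr3c1 from 0.33 to 0.43.

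Among 22 measured droplet proteins, other lipases and inhibitors, 4 fell and 0 rose in Casp1-/- fat, with a list median of 0.020. Plin2, a droplet coat protein found in many cell types, was 12.61, 12.36 and 12.66 in Casp1-/- fat against 13.15, 13.23, 13.37 and 13.28 in WT fat. The groups did not overlap, and Plin2 fell by 0.71 ± 0.093 (SE, adjusted p = 0.00829 by limma). Lipa, the acid lipase of lysosomes, was 9.58, 9.01 and 9.62 against 10.51, 10.88, 11.74 and 11.36, a fall of 3.29-fold (-1.72 ± 0.30, SE, adjusted p = 0.0161), also without overlap. Abhd12, a lysophospholipase and monoglyceride hydrolase, averaged 10.10 ± 0.13 in Casp1-/- and 10.90 ± 0.26 in WT fat (SD, n = 3 and 4) and fell by 0.80 ± 0.16 (SE, adjusted p = 0.0211). Fabp5, a fatty acid binding protein named after its values were seen, fell by 0.36 ± 0.080 (SE, adjusted p = 0.0287). ASC-/- fat exceeded Casp1-/- fat for all 4, by 0.75 for Plin2, 1.89 for Lipa, 0.86 for Abhd12 and 0.41 for Fabp5 (adjusted p = 0.00957, 0.0142, 0.0218 and 0.0259). Plin2 lost this call without ASC-/- replicate 1, and Lipa without ASC-/- replicate 1 or 2 or Casp1-/- replicate 2. Abhd12 lost it without ASC-/- replicate 1 or 2 or any 1 of the Casp1-/- arrays. The spike-in block gave 0.61 for Plin2, 1.08 for Lipa and 0.49 for Abhd12. Values of Fabp5 under the alternatives are not given here. Under the spike-in block Casp1-/- minus WT was -0.61 for Plin2 (adjusted p = 0.106), -1.11 for Lipa and -0.52 for Abhd12. Plin2 kept its call against WT without any single array (-0.77 to -0.62), Lipa lost it without Casp1-/- replicate 2 (range -1.92 to -1.51), and Abhd12 lost it without any 1 of the Casp1-/- arrays or WT replicate 4 (range -0.89 to -0.70). On the scale of the adipocyte markers, where the median of all genes was -0.42, Plin2 was -1.18 and Lipa -2.18, both past the threshold, and Abhd12 was -1.26 and lost its call (adjusted p = 0.0560).

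Of 23 measured cyclic nucleotide and kinase genes, 2 adenylyl cyclases fell in Casp1-/- fat, and the list median was 0.094. Adcy7 was 7.43, 7.34 and 7.81 in Casp1-/- fat against 8.55, 8.91, 10.36 and 9.77 in WT fat, a fall of 1.87 ± 0.38 on the log2 scale (SE, 3.65-fold, adjusted p = 0.0242 by limma). Adcy3 averaged 7.20 ± 0.24 against 8.31 ± 0.56 (SD, n = 3 and 4) and fell by 1.11 ± 0.29 (SE, adjusted p = 0.0490). In both, every Casp1-/- array lay below every WT array. Adcy7 was higher in ASC-/- than in Casp1-/- fat by 2.03 (adjusted p = 0.0242), while Adcy3 differed by 1.11 with adjusted p = 0.0617. Between the null genotypes Adcy7 lost its call without ASC-/- replicate 1 or 2 or any 1 of the Casp1-/- arrays. The spike-in block gave 0.90 there. Under the spike-in block Casp1-/- minus WT was -1.02 for Adcy7 and -0.54 for Adcy3 (adjusted p = 0.439 and 0.662). Adcy7 lost its call against WT without any 1 of the Casp1-/- arrays or WT replicate 4 (range -2.15 to -1.55), and Adcy3 passed only without WT replicate 1 or 2 (range -1.30 to -0.93). On the scale of the adipocyte markers Adcy7 was -2.33 and past the threshold, and Adcy3 was -1.57 and lost its call (adjusted p = 0.0647). The catalytic subunit gene Prkaca, named after its values were seen, was at 9.93, 9.95 and 9.90 on average in ASC-/-, Casp1-/- and WT fat.

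Of the 15 macrophage markers 10 also fell past the threshold in Casp1-/- fat, against 3.86% of all genes, with a list median of -1.46. Cd163, a scavenger receptor in the same list that was named after its values were seen, lay above WT without overlap (0.59), short of the threshold. Adgre1, Cd68 and Itgax averaged 9.02, 10.01 and 8.11 in Casp1-/- fat against 10.99, 12.12 and 9.89 in WT fat. None of the 3 lay at background in any genotype. Of the 9 adipocyte markers 0 passed by limma in Casp1-/- minus WT, against 8.17% of all genes, with 2 at an unadjusted p under 0.05, against 27.6%, and their median was 0.31. The part of macrophage content in the falls of Plin2, Lipa, Abhd12, Fabp5, Adcy7 and Adcy3 was not tested.

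The receptor and insulin lists held no gene past the threshold in Casp1-/- minus WT by limma, with 6 of 14 and 5 of 9 at an unadjusted p under 0.05, against 27.6% of all genes. The receptor list had a median of 0.17. Ffar4, a receptor for long-chain fatty acids that restrains lipolysis, was 6.77, 7.36 and 7.10 in ASC-/- fat, 8.31, 8.38 and 8.66 in Casp1-/- fat, and 7.88, 7.89, 6.76 and 7.65 in WT fat. It was lower in ASC-/- than in Casp1-/- fat by 2.59-fold (-1.37 ± 0.29, SE, adjusted p = 0.0259), and this call was lost without any 1 of the ASC-/- or Casp1-/- arrays (range -1.51 to -1.22). Against WT, Ffar4 was 0.90 ± 0.27 higher in Casp1-/- fat without overlap (SE, adjusted p = 0.0671). In the insulin list 8 of 9 differences of Casp1-/- minus WT were positive, against 57.3% of all genes, with a median of 0.41. Among these, Akt2, the kinase through which insulin acts on glucose uptake and lipolysis, was named after its values were seen and differed by 0.54 with an adjusted p of 0.0907.

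**Figure D5:**
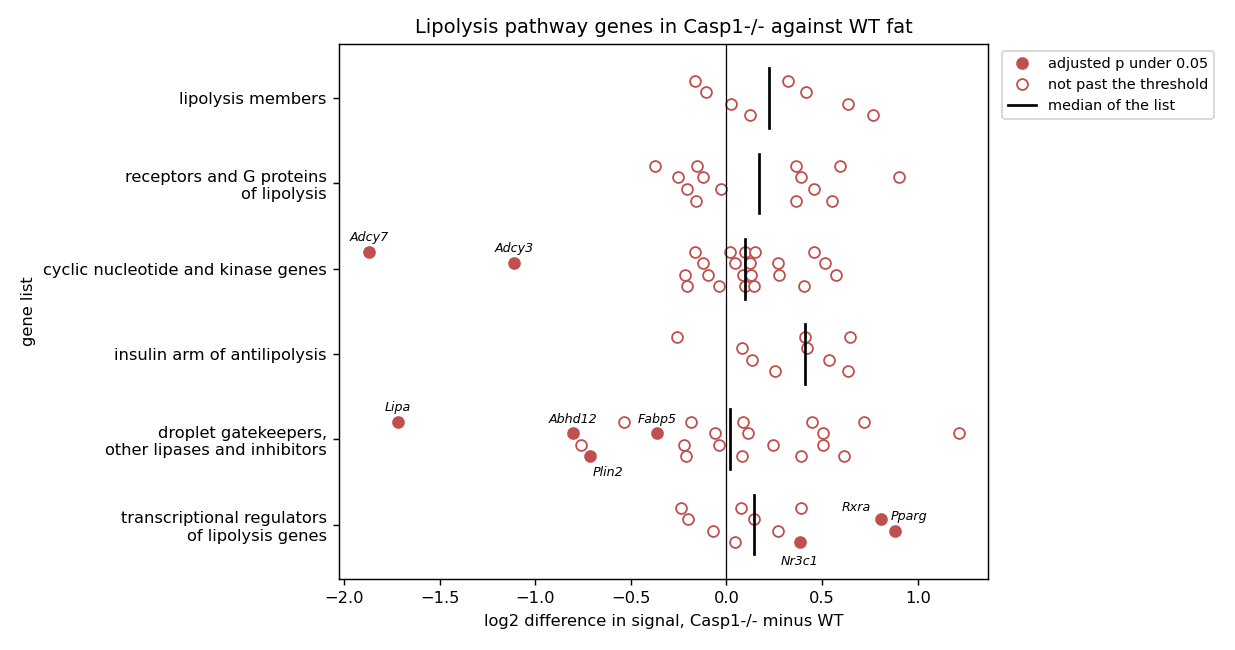
Log2 difference of Casp1-/- minus WT for each measured gene of the lipolysis set and of the 5 pathway lists, with filled points past an adjusted p of 0.05 and a bar at the list median. Adcy7, Adcy3, Lipa, Abhd12, Plin2 and Fabp5 lie to the left, Pparg, Rxra and Nr3c1 to the right, and no filled point lies among the lipolysis genes themselves.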

How the data were processed

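Gene expression was measured on 1 Affymetrix HT_MG-430 PM array per mouse (3 ASC-/-, 3 Casp1-/- and 4 WT). The deposited values are log2 signals that the authors made with RMA, per the submitters' processing notes, with no version given. RMA gives all arrays nearly the same distribution, so a change in total RNA leaves no trace, and signals near background are compressed. The number of arrays limits the precision. The table has 45141 probe sets, 104 of them controls. The annotation gave 1 symbol to 28898 and several to 551. The brightest probe set was used for each of 17097 genes, and dim genes were kept. The probes' genome build was not given in the sources used here.

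Genotype means were fitted gene by gene to the 10 arrays together (limma 3.58.1, R 4.3.3, default empirical Bayes). Tests were two-sided, adjusted by Benjamini-Hochberg over all genes, with a threshold of 0.05. The fit was tested on simulated data. Genes named are the 9 lipolysis genes, up to 3 higher and 3 lower per pathway list and comparison, 6 by likeness and fixed markers. Members, lists and tests were chosen with earlier results of these data known. Samples with the same replicate number did not deviate together (correlations of -0.26 to 0.19 between deviations from group means), so no pairing was used. Alternatives covered normalization, centring on the array median or the adipocyte markers, a filter on genes with a mean under 5, other probe set rules, empirical Bayes settings, array weights, the groups fitted, blocks, an actin covariate and leaving out each array. Leaving out the 3 arrays with the highest epididymis markers was added after the data were seen. Promoter windows came from RefSeq on GRCm38.p6.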

Additional observations from a re-analysis of the deposited data

How the results depend on the processing

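In ASC-/- minus WT 0 lipolysis or pathway genes passed by limma under every alternative run. Lipolysis genes past the threshold in Casp1-/- minus WT, 0 in the report, were 1 with quantile normalization, without genes of mean under 5 and with the trended and robust empirical Bayes step (G0s2, adjusted p = 0.0499, 0.0386 and 0.0470), and 2 with array weights or without the 3 arrays highest in epididymis markers (Lipe and G0s2). Leaving out each array gave 0 to 2. In ASC-/- minus Casp1-/-, 1 in the report, they were 0 with adipocyte centring, the replicate block, the spike-in block or the actin covariate (G0s2 at -0.54), 2 with array weights, 3 with only the compared groups, and 0 to 3 with each array left out. The other pathway genes, 9 in the report, were in Casp1-/- minus WT 4 with adipocyte centring or only the compared groups, 23 with array weights, 0 with the replicate block, the spike-in block or arrays of one spike-in set, 21 without the arrays highest in epididymis markers and 1 to 18 with each array left out. In ASC-/- minus Casp1-/- they were 24 with array weights, 26 with only the compared groups, 0 with either block, 2 with the actin covariate and 0 to 23 with each array left out. The replicate block changed no call in ASC-/- minus WT. With it Lipe and G0s2 were 0.77 and 0.61 in Casp1-/- minus WT. The share of all genes past the threshold moved too. In Casp1-/- minus WT it was 17.7% without genes of mean under 5, 17.5% with array weights and 0.0526% with the replicate block. It was 2.20% with adipocyte centring, 2.74% with only the compared groups and 19.4% without the arrays highest in epididymis markers. Leaving out each array in turn gave 0.374% to 17.7%. In ASC-/- minus Casp1-/- it was 20.1% with array weights and 19.0% with only the compared groups. The replicate block gave 0.111% there and the actin covariate 1.35%. Leaving out each array in turn gave 0.275% to 15.3% there. The cause of these moves was not tested. Arrays of one spike-in set gave the same values as the spike-in block in ASC-/- minus WT and Casp1-/- minus WT, and could not be compared for ASC-/- minus Casp1-/-, whose arrays lie in different sets. Sign changed in ASC-/- minus WT for Lipe 0.10, Abhd5 0.036, Pde3b 0.030 with the spike-in block. It changed for Lipe 0.16, Abhd5 0.091, Pde3b 0.029, Aqp7 0.058 with the actin covariate. It changed for Lipe 0.36, Abhd5 0.26, G0s2 0.088, Pde3b 0.21, Aqp7 0.20 with the arrays highest in epididymis markers left out. It changed for Pnpla2 -0.0015 with quantile normalization. It changed for Pnpla2 -0.11, Aqp7 0.12 with the replicate block. It changed for Abhd5 0.035 with array weights. It changed for Aqp7 0.0075 with adipocyte centring. It changed for Aqp7 0.0076 with means over probe sets. Sign changed in Casp1-/- minus WT for Pnpla2 0.58, Abhd5 0.28 with the arrays highest in epididymis markers left out. It changed for Mgll -0.14, Pde3b -0.044, Aqp7 -0.44, Prkar2b -0.34, Nr3c1 -0.077 with adipocyte centring. It changed for Mgll -0.052, Pde3b -0.018 with the spike-in block. It changed for Aqp7 -0.14 with array weights. It changed for Aqp7 -0.036 with the actin covariate. Sign changed in ASC-/- minus Casp1-/- for Mgll 0.23, Aqp7 0.44, Prkar2b 0.41, Nr3c1 0.036 with adipocyte centring. It changed for Mgll 0.26, Pde3b 0.048, Prkar2b 0.042 with the spike-in block. It changed for Mgll 0.041, Aqp7 0.093, Prkar2b 0.081 with the actin covariate. It changed for Abhd5 -0.014 with centring on the array median. It changed for Abhd5 -0.023, Aqp7 0.0087 with the arrays highest in epididymis markers left out. It changed for Aqp7 0.074 with array weights. With each array left out, values ran across 0 for Lipe (-0.25 to 0.13), Pnpla2 (-0.30 to 0.27), Mgll (-0.11 to 0.21), Abhd5 (-0.25 to 0.036), Pde3b (-0.36 to 0.030), Aqp7 (-0.25 to 0.19), Prkar2b (-0.085 to 0.15) in ASC-/- minus WT. They did so for Pnpla2 (-0.48 to 0.088), Abhd5 (-0.26 to 0.025), Aqp7 (-0.23 to 0.19), Prkar2b (-0.029 to 0.21) in Casp1-/- minus WT. They did so for Abhd5 (-0.068 to 0.13), Aqp7 (-0.16 to 0.16), Prkar2b (-0.10 to 0.0096) in ASC-/- minus Casp1-/-.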
